A study of Hydractinia symbiolongicarpus with 45 samples.

Results

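The comparison described here is between 2 rRNA-depleted RNA-seq libraries of whole *Hydractinia symbiolongicarpus* embryos kept in Triptolide and 2 of embryos kept in the vehicle DMSO, 4 libraries out of 45 in the whole series. They were chosen by treatment and library type, and each treatment has a library of clutch D and a library of clutch G. The study followed the egg and embryos of this colonial cnidarian by rRNA-depleted as well as poly(A)+ sequencing, and the treated embryos were collected at 7 hours post fertilization (h.p.f.). All embryos were wild type, and the gametes came from breeder colonies of the laboratory. The Triptolide group received 20 µM Triptolide dissolved in DMSO from the 1-cell stage onward, and the control group received DMSO alone at 0.5%, the concentration that the Triptolide dishes also reached. The libraries hold many whole embryos, so a lower level of an RNA in every cell and fewer cells that carry it cannot be told apart.

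Triptolide is a diterpenoid that inhibits transcription initiation by RNA Polymerase II through the general factor TFIIH. An animal egg is loaded with maternal mRNA, and in many animals the embryo's own genome is silent at first and becomes active during cleavage or later. A large part of the maternal mRNA is cleared over the same period, by factors already present in the egg and by factors that the embryo transcribes itself, which often act in the same embryo. An rRNA-depleted library counts an mRNA with or without its poly(A) tail, so a change there is a change in the amount of RNA rather than in tail length. Replication-dependent histone mRNAs normally have no poly(A) tail and are seen in full only in such libraries.

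The 2 Triptolide libraries held 11308217 and 10318914 counts and the 2 DMSO libraries 5770961 and 7959467, so the Triptolide group was sequenced more deeply. With all 4 thinned to the smallest total, 2466 genes were higher and 1986 lower in Triptolide in the test described next. A mean of at least 1 TPM, a level normalised for transcript length and library depth, was reached by 11411 gene models in Triptolide and by 13474 in DMSO, of 22022 in the table. Levels below are given in RPKM on the scale of TMM, the trimmed mean of M-values that edgeR uses to put libraries on a common scale. They are counts per kilobase of coding length, scaled to the TMM library size, and all fold changes are Triptolide over DMSO on the log2 scale with a prior count of 2. The replicates are separate clutches by their labels, and 2 libraries per group limit the precision of every value.

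Of 15944 gene models tested, 2847 were higher and 2307 lower in Triptolide (edgeR quasi-likelihood F test, Benjamini-Hochberg adjusted p under 0.05), which is 17.9% and 14.5% of those tested. The genes that fell did so steeply, with a median log2 fold change of -3.22 and quartiles of -4.29 and -1.75. The genes that rose did so by little, with a median of 0.61 and quartiles of 0.46 and 0.82. At a change of at least 2-fold, 363 genes remained on the higher side and 1951 on the lower. With the clutch letter as a replicate block, 4742 were higher and 2932 lower. Without 1 treated library, the calls came to 1912 higher and 1575 lower (DMSO clutch D left out), 1332 and 1238 (DMSO clutch G), 1551 and 1247 (Triptolide clutch D) or 1634 and 1255 (Triptolide clutch G). The number on the higher side also moved with the scaling between libraries, which is described after the gene groups.

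**Figure D1:**
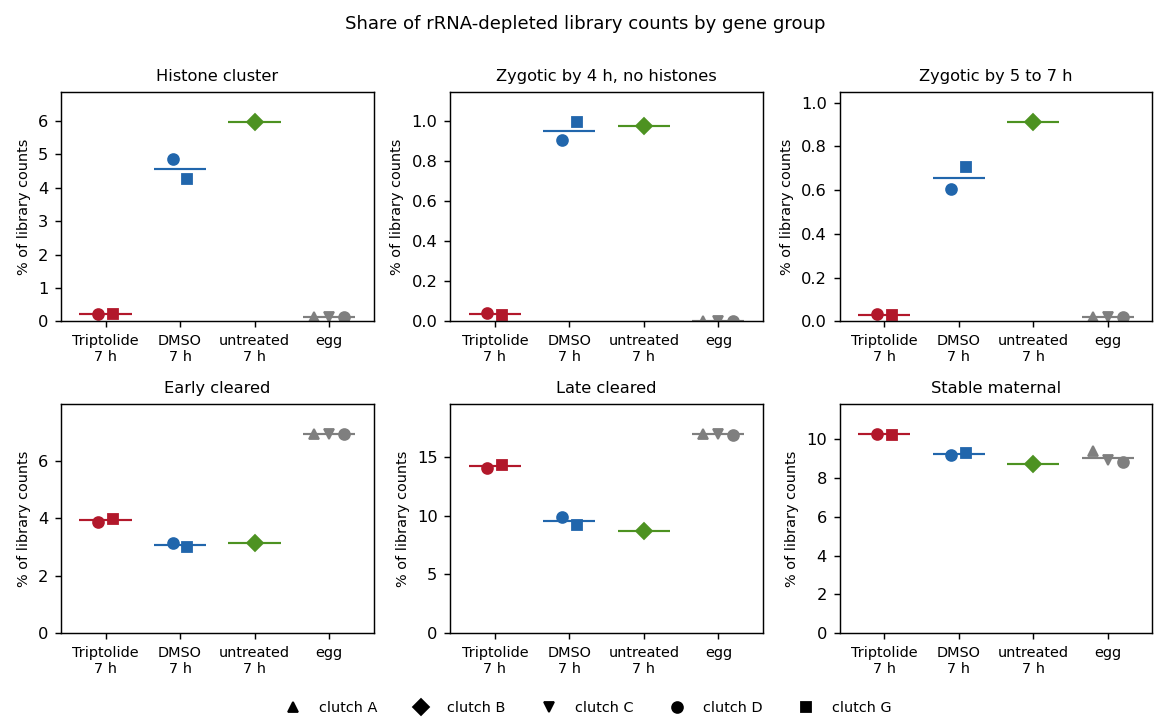
Share of all counts of a library (%) taken by 6 gene groups, in Triptolide and DMSO embryos at 7 h.p.f., in the single untreated 7 h.p.f. library and in eggs; each point is a library, its shape the clutch, and each horizontal line the group's mean. The 2 Triptolide libraries held 0.224% and 0.223% of their counts in the histone cluster, against 4.85% and 4.25% in the DMSO libraries, and 14.1% and 14.3% in late cleared maternal genes, against 9.88% and 9.16%.

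Gene models of the histone cluster list took 0.224% and 0.223% of counts in Triptolide, against 4.85% and 4.25% in DMSO. The study reports further histone genes, so these are shares of a part of all histone mRNA. The histone cluster list holds the 44 gene models on scaffold HyS0385 and every gene model whose counts equal those of one of them in all libraries, 167 in all with only 7 distinct sets of counts. Reads of identical copies cannot be assigned to one of them, so each set was summed. All 167 models were called lower in Triptolide, with a median of -4.24, against a median of 0.08 over all genes tested. Core histones package newly replicated DNA, and their genes lie in tandem arrays in many animals.

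The set of 39 identical models that includes HyS0051.4 summed to 2057 and 2023 RPKM in Triptolide, against 39893 and 34193 RPKM in DMSO. Its log2 fold change was -4.34 with a standard error (SE) of 0.20 (edgeR adjusted p = 3.13e-07). Eggs held 1349 ± 204 RPKM of the same sequence (SD, n = 3). The Triptolide embryos thus lay far below the DMSO embryos and slightly above the egg. The 18 models represented by HyS0385.3 stood out by their egg level, 1.55 ± 0.27 RPKM (SD, n = 3). They summed to 209.7 and 198 RPKM in Triptolide, against 8028 and 6251 RPKM in DMSO (log2 fold change -5.29, SE 0.49, edgeR adjusted p = 3.85e-05). For this sequence the Triptolide level was low beside DMSO and yet well above the egg in both clutches. The sets of HyS0033.2, HyS0051.1 and HyS0051.3 had log2 fold changes of -4.62, -4.38 and -4.41, and that of HyS0051.5 -5.49. HyS0385.10, a single model, had no count in either Triptolide library, against 6.93 and 4.31 RPKM in DMSO, which is at least 8.95-fold lower when the shallower Triptolide library is set at 3 counts (edgeR adjusted p = 0.0395, and 0.0966 to 0.141 when any 1 of the 4 libraries was left out).

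Genes that the egg lacks and the embryo switches on were grouped from untreated rRNA-depleted libraries. Those with a mean under 1 TPM in eggs and called higher at 4 h.p.f. form the zygotic 4 h list, 283 genes once the histone cluster is left out. Those called higher first at 5, 6 or 7 h.p.f. form the zygotic 5 to 7 h list of 1590 genes. Of the 283, 261 (92.2%) were lower in Triptolide and 2 higher, against 14.5% lower and 17.9% higher of all genes tested, with a median log2 fold change of -4.78, and of -4.69 when the 59 members without a count in Triptolide are set at the fold that 3 counts would give. The median level was 0.0986 RPKM in Triptolide and 7.00 RPKM in DMSO. The medians were -4.54 in clutch D and -5.04 in clutch G. Of the 1590 later genes, 873 (54.9%, against the same 14.5%) were lower and 1 higher, with a median of -2.87, or -2.48 with 670 members at that bound, and median levels of 0.0398 RPKM in Triptolide and 1.93 RPKM in DMSO. In 343 of them the DMSO mean itself was under 1 TPM. Relative to the egg, the 4 h genes had a median log2 difference of 0.48 in Triptolide and 5.41 in DMSO.

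**Figure D2:**
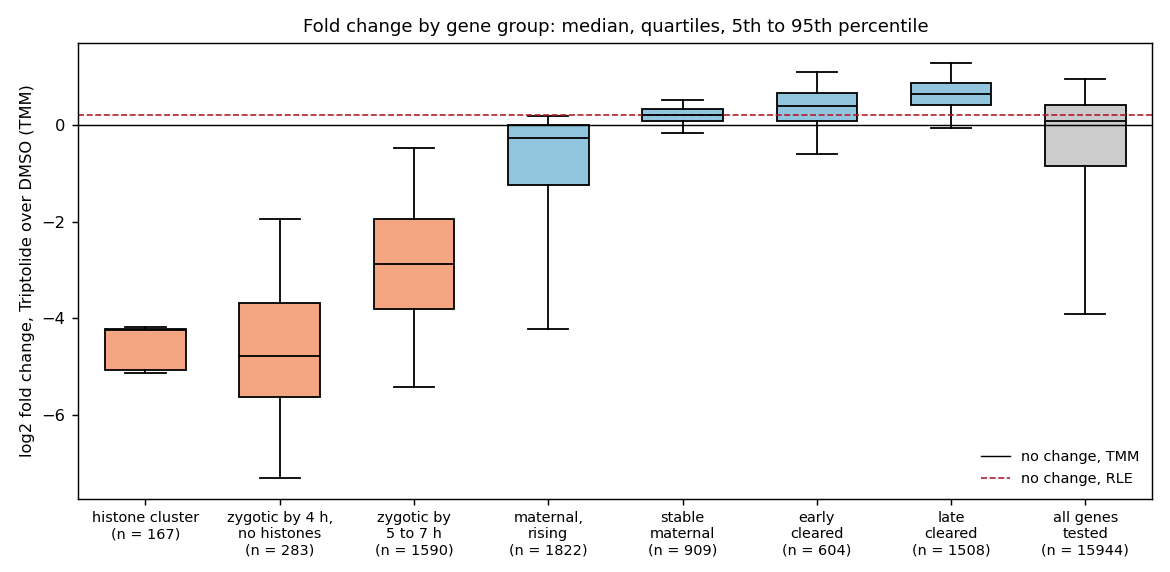
Log2 fold change of Triptolide over DMSO on the TMM scale for 7 gene groups and for all genes tested; boxes give the median and quartiles, whiskers the 5th to 95th percentile, and the dashed line is where no change lies under RLE scaling. The boxes of the histone cluster and both zygotic lists lie wholly below 0, with medians of -4.24, -4.78 and -2.87, while the stable maternal box straddles the dashed line at a median of 0.20.

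Among the activated genes with a known kind of protein, the predicted ammonium transporter HyS0101.18, of a family that moves ammonia across membranes, had 1.02 and 0.37 RPKM in Triptolide, against 453 and 557 RPKM in DMSO. The groups were far apart, with a log2 fold change of -9.22 (SE 1.06, edgeR adjusted p = 9.56e-05). The forkhead-box factor HyS0062.47 belongs to a family of DNA-binding developmental regulators. It had 0.26 and 0 RPKM in Triptolide, against 257 and 286 RPKM in DMSO. On 3 Triptolide counts in all, this was 2000-fold lower with an exact 95% counting interval of 684 to 9704 (edgeR adjusted p = 0.000112). The likely Sp5 homolog HyS0057.112, of a zinc-finger family that acts in Wnt signalling in *Hydra* and vertebrates, had 1.65 and 2.67 RPKM in Triptolide, against 104 and 83.7 RPKM in DMSO. Its log2 fold change was -5.34 (SE 0.66, edgeR adjusted p = 0.00016), and its Triptolide levels lay close to the 2.52 ± 0.39 RPKM of eggs (SD, n = 3).

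The 10 genes with the largest falls also held HyS0029.17, HyS0018.41, HyS0052.120, HyS0054.90, HyS0050.114, HyS0017.86 and HyS0005.401, for which the sources used here give no function. HyS0029.17 had 0.12 and 0 RPKM in Triptolide, against 318 and 352 RPKM in DMSO. That was the widest gap of the 10, a single Triptolide count standing 5242-fold below DMSO with a counting interval of 940.1 to 207095. HyS0054.90 had 0.061 and 0 RPKM in Triptolide, against 76.3 and 115 RPKM in DMSO. HyS0018.41 had 0 and 0.17 RPKM in Triptolide, against 153 and 219.8 RPKM in DMSO. In untreated 7 h.p.f. embryos of clutch B, these genes stood at 295 (HyS0029.17), 169 (HyS0054.90) and 309 RPKM (HyS0018.41), at the order of the DMSO values. The remaining leading genes of the zygotic lists lay on the same side. HyS0078.69 had 0.94 and 1.32 RPKM in Triptolide, against 235 and 342 RPKM in DMSO, and HyS0031.77 had 0.37 and 0.49 RPKM, against 96.6 and 121 RPKM. HyS0030.197 had 1.06 and 0 RPKM in Triptolide, against 65.0 and 62.51 RPKM in DMSO.

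A family of genes similar to KMT5A, the methyltransferase that adds the first methyl group to lysine 20 of histone H4, has 24 members in the lists used here. KMT5A acts on chromatin and has been tied to DNA replication. The study's supplement sorts the 24 by when their mRNA appears, with 2 maternal, 13 by 4 h.p.f. and 9 by 7 h.p.f. Those groups rest on untreated embryos. Of the 13 genes of the 4 h group, 12 (92.3%) were lower in Triptolide, with a median of -6.15. All 9 genes of the 7 h group were lower, with a median of -4.05. Of all genes tested, 14.5% were lower, and the median of all was 0.08. Neither maternal gene passed the test. For the 13 genes of the 4 h group, levels ran between 0 and 0.41 RPKM in Triptolide and between 0.79 and 94.2 RPKM in DMSO. For each of them both Triptolide libraries were below both DMSO libraries, which also held for 5097 of all 15944 genes tested.

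HyS0111.12 and HyS0030.151 were the most abundant of the 4 h group. HyS0111.12 had 0.25 and 0.27 RPKM in Triptolide, against 85.7 and 94.2 RPKM in DMSO (log2 fold change -8.11, SE 0.78, edgeR adjusted p = 0.000169). HyS0030.151 had 0.14 and 0.070 RPKM in Triptolide, against 79.0 and 93.9 RPKM in DMSO (log2 fold change -9.15, SE 0.81, edgeR adjusted p = 1.12e-05). Both were near 0 in eggs and in Triptolide, and level between the DMSO clutches. A further 3 members had no count in either Triptolide library. HyS0044.38 was at least 195-fold lower, at 14.4 and 15.7 RPKM in DMSO, HyS0067.72 at least 20.4-fold lower, at 6.50 and 7.48 RPKM, and HyS1038.1 at least 8.04-fold lower, at 0.80 and 1.35 RPKM. HyS0082.41 was the one 4 h member that did not pass, at 0.094 and 0.12 RPKM in Triptolide, against 0.79 and 1.11 RPKM in DMSO (log2 fold change -2.67, edgeR adjusted p = 0.069, and 0.0116 with the clutch block). HyS0035.153 was called at an adjusted p of 0.0208 that became 0.0565 to 0.124 when any 1 of the 4 libraries was left out.

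In the 7 h group, Triptolide levels ran between 0 and 1.79 RPKM and DMSO levels between 1.38 and 12.2 RPKM. HyS0109.11 was the one member with clear Triptolide signal, at 1.64 and 1.79 RPKM, against 8.36 and 10.9 RPKM in DMSO (log2 fold change -2.46, SE 0.28, edgeR adjusted p = 9.4e-05). Eggs held 1.84 ± 0.17 RPKM of it (SD, n = 3), so that the Triptolide value lay at the egg's. HyS0114.13 had 0.53 and 0 RPKM in Triptolide, against 10.2 and 12.2 RPKM in DMSO. Several 7 h calls rested on few counts. HyS0006.195 had an adjusted p of 0.0211, and 0.0616 with the clutch block. The calls of HyS0064.15 and HyS0001.23 were lost when any 1 of the 4 libraries was left out, with adjusted p-values of 0.0609 to 0.135 and 0.0665 to 0.146. That of HyS0006.195 was lost without DMSO clutch G (0.163), Triptolide clutch D (0.126) or Triptolide clutch G (0.0645). That of HyS0113.11 was lost without DMSO clutch G (0.0727) or Triptolide clutch G (0.0641), and that of HyS0367.3 without Triptolide clutch D (0.058) or Triptolide clutch G (0.0538). Of the maternal pair, HyS0034.48 had 126 and 124 RPKM in Triptolide, against 119 and 122 RPKM in DMSO, a log2 fold change of 0.05 (SE 0.19) that turned negative under RLE scaling at -0.16. HyS0117.8 had 7.65 and 9.61 RPKM in Triptolide, against 10.3 and 15.7 RPKM in DMSO (log2 fold change -0.59, edgeR adjusted p = 0.092, 0.0277 with the clutch block and 0.0391 under RLE).

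**Figure D3:**
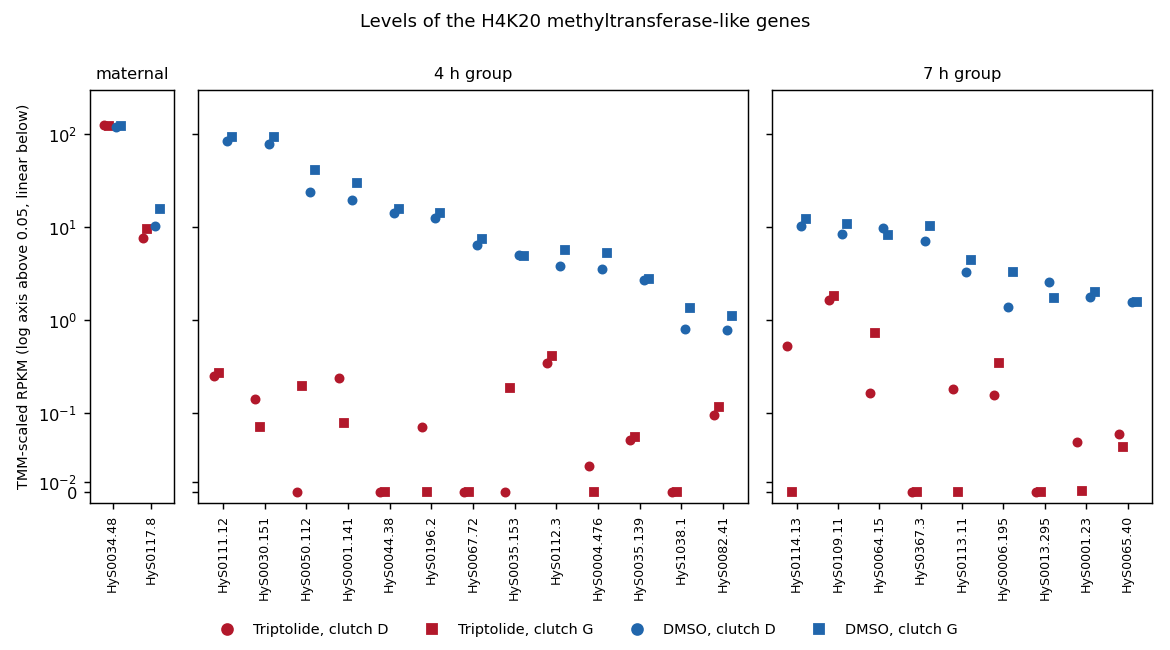
TMM-scaled RPKM (logarithmic above 0.05, linear below) of the 24 KMT5A-like genes in the 2 Triptolide and 2 DMSO libraries, sorted by DMSO level within the maternal, 4 h and 7 h groups; circles are clutch D and squares clutch G. In the 4 h and 7 h groups the Triptolide points lie at or below 1.79 RPKM, under the DMSO points of the same gene, while the maternal HyS0034.48 lies between 119 and 126 RPKM in all 4 libraries.

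The 5 gene models with retrovirus-related open reading frames went in both directions. Such reading frames belong to transposable elements, which can move within the genome by way of an RNA copy. The study picked HyS0422.6 and HyS4764.1 on Triptolide-treated samples, so their direction is not independent of these data. HyS4714.1, HyS4716.1 and HyS4654.1 were lower in Triptolide. HyS4714.1 had 11.1 and 6.09 RPKM in Triptolide, against 301 and 302 RPKM in DMSO (log2 fold change -5.12, SE 0.73, edgeR adjusted p = 0.00048). HyS4716.1 had 4.59 and 2.47 RPKM, against 181 and 191 RPKM in DMSO, and HyS4654.1 had 3.32 and 2.23 RPKM, against 184 and 198 RPKM. All 3 were under 1 RPKM in eggs and kept a low but countable level in Triptolide.

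HyS4764.1 had 97.2 and 99.8 RPKM in Triptolide, against 5.48 and 3.39 RPKM in DMSO. Its log2 fold change of 4.45 (SE 0.31, edgeR adjusted p = 2.69e-06) was past the threshold under each scaling and without each library. Eggs held 0.40 ± 0.21 RPKM (SD, n = 3) and the untreated 7 h.p.f. library 3.42 RPKM, so the Triptolide level exceeded all of these. HyS0422.6 had 10.4 and 8.66 RPKM in Triptolide, against 1.73 and 1.26 RPKM in DMSO, a log2 fold change of 2.53 (SE 0.88, edgeR adjusted p = 0.0404) that missed the threshold under RLE scaling (0.0641), in DESeq2 (0.375) and without each of the 4 libraries (0.112 to 0.206). HyS4764.1 was also 1 of the 2 zygotic 4 h genes called higher. The other was HyS4366.1, named here after its values were seen, at 81.1 and 76.9 RPKM in Triptolide, against 20.9 and 17.7 RPKM in DMSO (log2 fold change 2.03, SE 0.51, edgeR adjusted p = 0.011, and 0.0536 without DMSO clutch D, 0.0905 without DMSO clutch G and 0.0587 without Triptolide clutch D). The single zygotic 5 to 7 h gene called higher was HyS0161.6, at 5.77 and 3.81 RPKM in Triptolide, against 0.71 and 0.26 RPKM in DMSO (log2 fold change 2.94, edgeR adjusted p = 0.0221, and 0.0558 to 0.157 when any 1 of the 4 libraries was left out).

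The other large rises were in genes with no function in the sources used here. HyS0063.74 had 23.8 and 18.5 RPKM in Triptolide, against 0.59 and 0.86 RPKM in DMSO (log2 fold change 4.60, SE 0.76, edgeR adjusted p = 0.000879). HyS0120.11 had 8.30 and 10.7 RPKM, against 0.87 and 0.78 RPKM in DMSO (log2 fold change 3.08, SE 0.57, edgeR adjusted p = 0.00113). Both exceeded the egg, at 0.81 ± 0.64 RPKM for HyS0063.74 and 1.57 ± 0.14 RPKM for HyS0120.11 (SD, n = 3). HyS0018.47, a late cleared maternal gene, had 5.08 and 3.46 RPKM in Triptolide, against 0.26 and 0.19 RPKM in DMSO and 6.90 ± 1.44 RPKM in eggs (log2 fold change 3.20, SE 0.55, edgeR adjusted p = 0.000247). HyS0018.47 was thus near its egg level in Triptolide and not in DMSO. The DMSO values of these rises rested on few counts, so the size of the fold changes is imprecise. In clutches D and G they were 1 and 1 for HyS0018.47 and 3 and 3.70 for HyS0120.11. For HyS0063.74 they were 4 and 8, and for the zygotic HyS0161.6 they were 4 and 2. The other genes among the 10 largest rises, HyS3294.1, HyS0143.12, HyS0051.6 and HyS0078.84, had log2 fold changes of 2.94, 4.37, 2.52 and 2.21. HyS0051.6 and the zygotic HyS4366.1 are outside the histone cluster list, but each lies on a scaffold with models of that list. Whether they are histone genes was not tested. HyS0143.12, HyS0051.6 and HyS0078.84 missed the threshold when any 1 of the 4 libraries was left out, at adjusted p-values between 0.0661 and 0.167, and HyS3294.1 without DMSO clutch D (0.0638) or Triptolide clutch D (0.0575). Under RLE, HyS0051.6 (0.0644) and HyS0078.84 (0.0519) missed it as well, and in DESeq2 HyS0143.12 did (adjusted p = 0.423).

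Maternal genes whose level rises in untreated embryos, 1822 in all with at least 1 TPM in eggs and a call at 4 to 7 h.p.f., split in Triptolide. Of these, 685 were lower and 19 higher, but 115 of the 685 are histone cluster models, copies of the sequences of HyS0033.2, HyS0051.1, HyS0051.3 and HyS0051.4 given above. Without the histone cluster, 570 of 1707 genes (33.4%) were lower and 19 (1.11%) higher, against 14.5% lower and 17.9% higher of all genes tested. Their median was then -0.22, with quartiles of -0.91 and -0.0010. Relative to the egg, and on the TMM scale only, the whole list had a median log2 change of 0.36 in Triptolide and 0.61 in DMSO. HyS1028.5 is outside the histone cluster list but lies on a scaffold with models of that list, and has the 312-base coding length of HyS0051.3. Whether it is a histone gene was not tested, so the genes left may still hold histone models. HyS1028.5 had 1086 and 1210.2 RPKM in Triptolide, against 11936 and 9942 RPKM in DMSO and 1032 ± 252 RPKM in eggs (SD, n = 3). The Triptolide level stayed at the egg's, and its log2 fold change was -3.25 (SE 0.47, edgeR adjusted p = 0.000544). HyS0044.71 had 1333 and 1329 RPKM in Triptolide, against 1749 and 1939 RPKM in DMSO (log2 fold change -0.47, edgeR adjusted p = 0.0191, and 0.119 without DMSO clutch G, 0.0921 without Triptolide clutch D and 0.0909 without Triptolide clutch G). HyS0042.123 had 862 and 954 RPKM in Triptolide, against 845.5 and 938 RPKM in DMSO, with a log2 fold change of 0.03 (SE 0.12) that turned to -0.18 under RLE.

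Maternal mRNAs that untreated embryos clear were taken from the poly(A)+ time course, as genes called at least 2-fold below the egg with no rise of over 1.5-fold from stage to stage. The list first called at 2 to 4 h.p.f. is early cleared, 604 genes, and that first called at 5 to 7 h.p.f. is late cleared, 1508 genes. Of the late cleared genes, 931 were higher in Triptolide and 9 lower, which is 61.7% higher against 17.9% of all genes tested. Their median log2 fold change was 0.64, at 0.58 in clutch D and 0.67 in clutch G. Of the early cleared genes, 266 were higher and 34 lower, with a median of 0.39. Under RLE the calls were 592 higher and 31 lower for the late list and 138 higher and 53 lower for the early list, with medians of 0.44 and 0.19.

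Set against the egg, the late cleared genes had a median log2 change of -0.28 in Triptolide and -0.96 in DMSO, and 183 of them were at least 2-fold below the egg in Triptolide and 706 in DMSO. The early cleared genes had medians of -1.001 in Triptolide and -1.47 in DMSO, with 303 genes 2-fold below the egg in Triptolide and 431 in DMSO. In both lists the median level in Triptolide lay between those of the egg and DMSO. These egg comparisons are given on the TMM scale only. On it the stable maternal genes, described below, had medians of 0.23 in Triptolide and 0.03 in DMSO. The gaps between Triptolide and DMSO therefore include that offset. The eggs were of clutches A, C and D, and clutch G had no egg library in this set. Sorted by the time of first call, the median log2 fold change was 0.38, 0.40 and 0.41 for genes first called at 2, 3 and 4 h.p.f., and 0.49, 0.69 and 0.67 for 5, 6 and 7 h.p.f.

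HyS0151.1 was the most abundant late cleared gene in eggs. It had 32364 and 35391 RPKM in Triptolide, against 20378 and 18218 RPKM in DMSO and 36843 ± 8533 RPKM in eggs (SD, n = 3). Its log2 fold change of 0.81 (SE 0.27) had an edgeR adjusted p of 0.0399, which was 0.104 to 0.188 when any 1 of the 4 libraries was left out and 0.124 under RLE. HyS0064.47 had 2122 and 2226 RPKM in Triptolide, against 1115 and 947 RPKM in DMSO (log2 fold change 1.08, SE 0.15, edgeR adjusted p = 0.000482). The groups did not overlap, and the egg stood at 2346 ± 187 RPKM (SD, n = 3). HyS0059.47 did not pass, with a log2 fold change of 0.65 (SE 0.27, edgeR adjusted p = 0.0868, and 0.0157 with the clutch block). Among early cleared genes, HyS0030.200 had 47.6 and 49.8 RPKM in Triptolide, against 26.3 and 19.3 RPKM in DMSO (log2 fold change 1.10, SE 0.15, edgeR adjusted p = 0.00042) and 121 ± 4.16 RPKM in eggs (SD, n = 3). It was higher in Triptolide under each scaling and still far below the egg.

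The 3 early cleared genes with the highest egg levels were HyS0045.44, HyS0012.99 and HyS0010.85. HyS0012.99 had 34.6 and 47.6 RPKM in Triptolide, against 29.0 and 17.1 RPKM in DMSO (log2 fold change 0.84, edgeR adjusted p = 0.027), a call lost under RLE (0.0901) and without the DMSO (0.221) or the Triptolide library (0.181) of clutch G. HyS0045.44 and HyS0010.85 had log2 fold changes of 0.92 and 0.18 (edgeR adjusted p = 0.054 and 0.20, and 0.00251 and 0.0365 with the clutch block), and HyS0010.85 turned to -0.03 under RLE. Among early cleared genes with lower egg levels, HyS0020.263, a predicted metabotropic glutamate receptor, had 13.6 and 15.7 RPKM in Triptolide, against 9.83 and 9.40 RPKM in DMSO (log2 fold change 0.60, SE 0.15, edgeR adjusted p = 0.0106). The call was lost under RLE (0.0698), in DESeq2 (0.062) and without either library of clutch G (0.0795 and 0.0802). HyS0042.69 had 18.7 and 19.4 RPKM in Triptolide, against 16.0 and 13.8 RPKM in DMSO, with an adjusted p of 0.0167 under TMM and 0.276 under RLE, and 0.16 without DMSO clutch G, 0.0575 without Triptolide clutch D and 0.0889 without Triptolide clutch G. The Smaug homolog HyS0016.179, an RNA-binding repressor of maternal mRNA in flies, did not pass at 61.6 and 62.2 RPKM in Triptolide, against 55.2 and 52.2 RPKM in DMSO (log2 fold change 0.20, SE 0.10, edgeR adjusted p = 0.126).

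**Figure D4:**
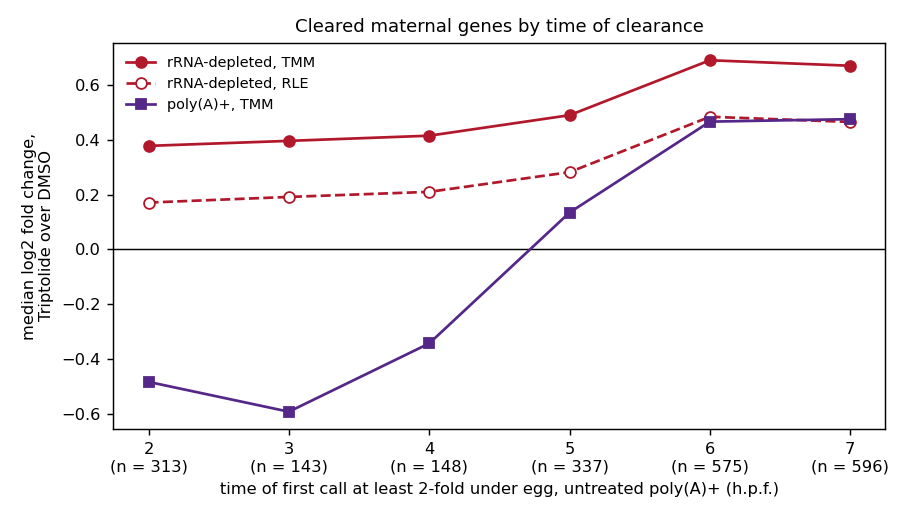
Median log2 fold change of Triptolide over DMSO for cleared maternal genes, by the time (h.p.f.) at which they were first called at least 2-fold under the egg in untreated poly(A)+ libraries, in rRNA-depleted libraries under TMM and RLE and in poly(A)+ libraries under TMM. The rRNA-depleted medians lie above 0 at every time under both scalings, between 0.38 and 0.69 under TMM, while the poly(A)+ medians are -0.48, -0.59 and -0.34 for 2 to 4 h.p.f. and 0.13, 0.47 and 0.48 for 5 to 7 h.p.f.

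Stable maternal genes, 909 with at least 5 TPM in poly(A)+ eggs and a level close to the egg's at 4 to 7 h.p.f. there, mark the scale itself. On the TMM scale 147 (16.17%) were higher in Triptolide and 8 (0.88%) lower, with a median of 0.20. The share on the higher side was close to the 17.9% of all genes tested. Their share of counts was 10.3% and 10.2% in Triptolide, against 9.20% and 9.29% in DMSO and 8.84% to 9.40% in eggs. Their 3 most abundant members, HyS0059.43, HyS0004.42 and HyS0010.17, had log2 fold changes of 0.26, 0.18 and 0.30 that did not pass (edgeR adjusted p = 0.0714, 0.0804 and 0.149). With the clutch block they passed, at 0.00282, 0.018 and 0.00839, and the value of HyS0004.42 was -0.03 under RLE. Of the further maternal genes named next, HyS0045.22 alone was on the stable list. HyS0045.22 and HyS0005.469 were on the rising maternal list. The linker histone H1.4, encoded by the identical models HyS0030.125 and HyS2746.2, binds DNA between nucleosomes. It had 297 and 281 RPKM in Triptolide, against 232 and 214 RPKM in DMSO (log2 fold change 0.37, SE 0.14, edgeR adjusted p = 0.0556, and 0.0013 with the clutch block). The POU-domain factor Polynem, HyS0098.14, tied to stem cells in *Hydractinia echinata*, had 44.7 and 43.5 RPKM in Triptolide, against 28.9 and 32.5 RPKM in DMSO (log2 fold change 0.52, SE 0.37, edgeR adjusted p = 0.301, and 0.000859 with the clutch block). HyS0005.469 had 135 and 136 RPKM in Triptolide, against 163 and 182 RPKM in DMSO (log2 fold change -0.35, SE 0.14, edgeR adjusted p = 0.0823). It passed under RLE (0.0165), in DESeq2 (0.00168) and with the clutch block (0.00206). HyS0003.78 and HyS0045.22 did not pass, at log2 fold changes of 0.15 and 0.14, or -0.06 and -0.07 under RLE.

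The scaling method decided how many maternal genes counted as higher. With RLE, the median-of-ratios size factors, 1252 genes were higher and 2748 lower, or 7.85% and 17.2% of those tested. The share of calls on the higher side was 55.2% under TMM and 31.3% under RLE. With totals alone it was 52.3% (2544 higher and 2317 lower), with upper-quartile factors 36.4% (1483 and 2595), with totals that leave out the histone cluster 45.24% (1991 and 2410) and with totals of the stable maternal genes 33.3% (1262 and 2529). A scaling moves all fold changes by nearly the same amount. Relative to TMM that shift was -0.21 under RLE, -0.02 for totals, -0.16 for the upper quartile, -0.09 without the histone cluster and -0.17 for the stable genes. The median log2 fold change of all genes tested was 0.08 under TMM and -0.11 under RLE. On the RLE scale the stable maternal median was -0.0016. On that of the stable totals it was 0.04, near 0 by construction, since these genes set that scale.

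The TMM scale itself moved with the genes and libraries that entered it. When identical gene models were summed before the fit, so that the histone sets counted as 7 and not as 167 models, the TMM shift was -0.16 and 1476 genes were higher and 2346 lower. When only the 4 treated libraries were fitted, the shift was also -0.16. That fit called 2693 genes higher and 4099 lower, but it also tested 14204 genes and had 2 residual degrees of freedom, so its counts do not reflect the scale alone. Leaving out clutch B, which has untreated 5, 6 and 7 h.p.f. libraries only, gave -0.13, with 1723 higher and 2502 lower, and edgeR's filterByExpr gave -0.07, with 2255 and 2452. On the scale of TPM the log2 fold changes of Triptolide over DMSO would stand 0.18 above those under TMM.

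**Figure D5:**
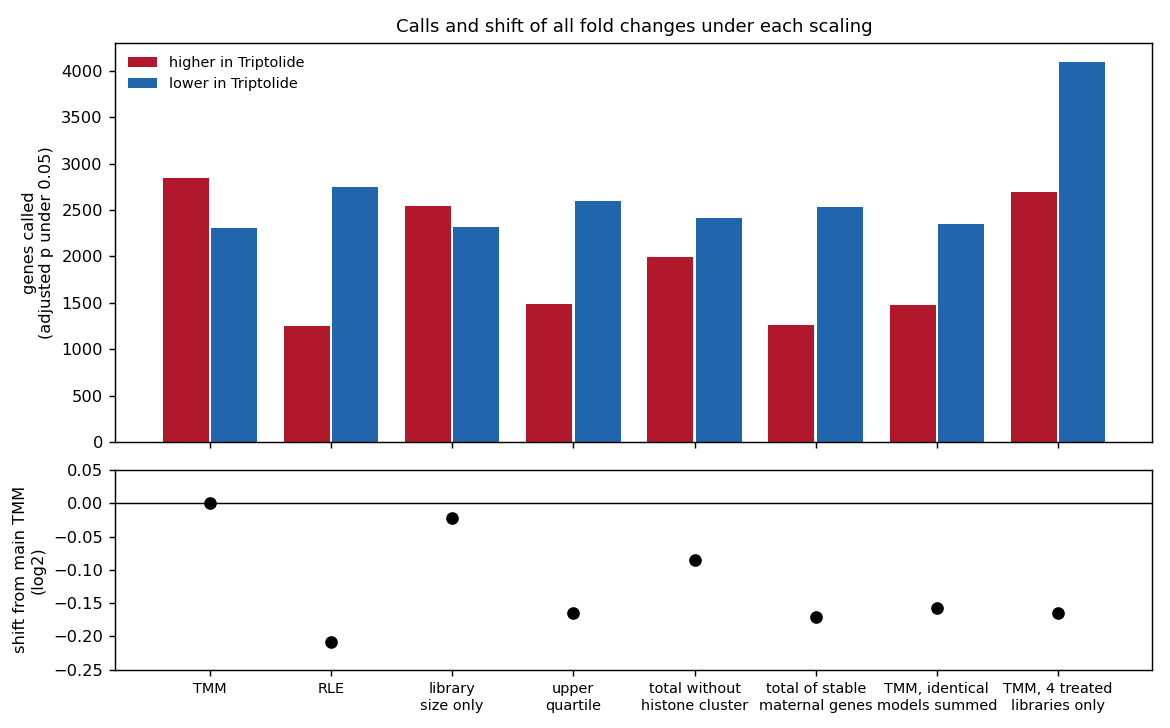
Genes called higher and lower in Triptolide (upper panel) and the mean shift of all log2 fold changes from the main TMM scaling (lower panel) under 6 scalings and 2 other TMM settings. The bars for lower genes run between 2307 and 2748 in the 6 scalings, those for higher genes between 1252 and 2847, and the shifts between -0.21 and 0.

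The genes behind these counts can be sorted by how they fared. Under all 6 scalings 1078 genes were higher and 2219 lower, and a further 1833 were higher and 623 lower under some of them, with none higher under one and lower under another. For comparison, the 15944 genes tested held 1508 late cleared, 909 stable maternal and 1822 rising maternal genes. The 1078 had a median log2 fold change of 0.83, and 531 of them, or 49.3%, were late cleared. The 1769 higher under TMM but not under all 6 had a median of 0.50, with 400 late cleared genes, or 22.6%, and 134 stable maternal genes. The 474 genes lower under RLE and not under TMM had a median of -0.27, and 267 of them were of the rising maternal list. The falls of the activated lists did not move in this way. All 167 histone models and 312 of 334 zygotic 4 h genes, histones included, were lower under each of the 6 scalings, and the later zygotic genes numbered 832 to 875. For the rising maternal list, histone models included, the lower calls ran between 685 under TMM and 952 under RLE.

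By egg level, 1333 of 4558 genes under 1 TPM in rRNA-depleted eggs were lower in Triptolide (29.2%) and 14 higher (0.31%). Of all genes tested, 14.5% were lower and 17.9% higher. At 1 to 5 TPM, 228 of 1060 genes were lower (21.5%) and 37 higher (3.49%). Of 6345 genes at 50 TPM or more, 2002 were higher (31.6%) and 357 lower (5.63%) under TMM. Under RLE 877 were higher and 667 lower, so that the balance in this class depended on the scale. In the class of 5 to 50 TPM, 794 of 3981 genes were higher (19.9%, close to the share of all genes) and 389 lower (9.77%) under TMM. Under RLE 343 were higher and 523 lower, which turned the balance round. For all genes tested the RLE shares were 7.85% higher and 17.2% lower.

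The poly(A)+ libraries of the same clutches and treatments differed from the rRNA-depleted ones for histones and for early cleared genes. The poly(A)+ comparison had 954 higher and 3568 lower of 18928 genes, or 5.04% and 18.9%. The difference between the effects was tested as an interaction over 43 libraries, where 549 of 19461 genes (2.82%) had a more positive and 137 (0.704%) a more negative effect in rRNA-depleted libraries (edgeR adjusted p under 0.05). Among early cleared genes, 167 of 604 were on the positive side. The early cleared genes had a median of 0.39 with rRNA depletion, against -0.48 with poly(A)+ selection. The late cleared genes had 0.64 with rRNA depletion, against 0.40 with poly(A)+ selection, with 68 of 1508 genes on the positive side and 1 on the negative. Of the 167 histone models, 116 were on the negative side, but these were 4 of the 7 distinct sequences, and with identical models summed the negative side held 22 genes in all. The histone median was -4.24 with rRNA depletion, against -0.91 with poly(A)+ selection. In the DMSO poly(A)+ libraries the histone sequences had at most 3.75 RPKM per model, so a fall there could hardly be seen. Without the Triptolide poly(A)+ library of clutch D or clutch G the negative side held 32 or 37 genes.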

How the data were processed

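Per the labels and the study's methods, reads were trimmed with Trim Galore 0.6.6 and cutadapt 1.15 and assigned with kallisto 0.46.1, strand-specifically, to the protein-coding gene models of the *H. symbiolongicarpus* assembly. The authors deposited estimated counts per gene model, of which 18.7% were not whole, and these were rounded. Identical gene models (1178 models in 360 sets) share reads, so their split is uncertain. Gene models with at least 10 counts summed over the 18 rRNA-depleted libraries, 15944 of 22022, were tested with edgeR 4.0.16 in R 4.3.3 (TMM scaling, quasi-likelihood F test, 11 groups, 7 residual degrees of freedom, Benjamini-Hochberg adjusted p under 0.05, prior count 2). DESeq2 1.42.0, 5 other scalings, other filters, other sample sets, summed identical models, thinned counts and the omission of each library were alternatives. The processing notes also name DESeq2 4.0.3.

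Clutch letters in the labels pair the libraries. Deviations from the group means correlated at 0.0194 between same-clutch libraries (Pearson, 12318 genes), and the clutch block left 4 residual degrees of freedom. Library totals were 3503063 to 20464403 counts, and exact 95% intervals cover counting error only. Members and lists were chosen with earlier results of these data known. Named were all genes of the fixed lists, the 10 largest rises and falls among called genes with a mean of at least 5 TPM in either group and no overlap between groups, and the top 3 of each stage list by level. The zygotic gene HyS4366.1 was named in addition, after its values were seen. The tests were checked on simulated counts. Gene names come from the study's text, since 0 identifiers matched the RefSeq table used, and the roles given with them are general background. A further 2 pilot libraries were not used.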

Additional observations from a re-analysis of the deposited data

Results flagged for a closer look

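For 11 named genes the effect of Triptolide depended on the library type, rRNA-depleted or poly(A)+, by the interaction test (edgeR adjusted p under 0.05). The differences below are the rRNA-depleted effect minus the poly(A)+ effect on the log2 scale, and their causes were not tested.

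In the DMSO poly(A)+ libraries the histone sequences named next had only 0.30 to 3.75 RPKM per model, where a fall could hardly be seen. A differing effect of Triptolide and poor capture of histone mRNA therefore cannot be told apart. Histone sequences fell further in rRNA-depleted libraries, by differences of -3.71 for HyS0033.2 (adjusted p = 0.00428), -4.52 for HyS0051.1 (0.000467), -3.31 for HyS0051.4 (0.00408) and -5.75 for HyS0385.3 (0.0212). HyS0051.1 kept this call without each of the 8 treated libraries. HyS0033.2 lost it without the Triptolide poly(A)+ library of clutch D (0.0529) or G (0.069), and so did HyS0051.4 (0.0738 and 0.0565). HyS0385.3 lost it without those same libraries (0.144 and 0.252) or the DMSO poly(A)+ library of clutch G (0.0694). HyS1028.5, of the rising maternal list but on a scaffold with histone cluster models, differed by -3.38 (adjusted p = 0.00377). Its effect was -3.25 after rRNA depletion, against -0.02 after poly(A)+ selection, where it had only 11.4 and 13.2 RPKM in DMSO. The KMT5A-like gene HyS0013.295 differed by -3.17 (adjusted p = 0.0484), a call lost when any 1 of the 8 libraries was left out (0.0613 to 0.258).

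Early cleared genes differed the other way, by 1.53 for the Smaug homolog HyS0016.179 (adjusted p = 0.000785), 1.70 for HyS0020.263 (0.000467) and 1.31 for HyS0042.69 (0.00108). In poly(A)+ libraries these 3 had log2 fold changes of -1.48, -1.26 and -1.10, and they kept the call without each of the 8 libraries. HyS0018.47 differed by 3.44 (adjusted p = 0.000915, and 0.111 without the DMSO poly(A)+ library of clutch G). HyS0063.74 differed by 3.47 (adjusted p = 0.0369), a call lost when any 1 of the 8 libraries was left out (0.0642 to 0.182).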

How the results depend on the processing

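The 2847 higher calls became 1252 with RLE, 1483 with upper-quartile factors, 1262 with totals of stable maternal genes, 1418 in DESeq2, 1476 with identical models summed, 1723 without clutch B (added after seeing the data, as was thinning), 363 at 2-fold or more and 4742 with the clutch as a replicate block. They ran between 1332 and 1912 without 1 treated library. The 2307 lower calls became 4099 with only the 4 treated libraries and 4046 there with the replicate block, and ran between 1238 and 1575 without 1 library. The library type difference had 549 more positive and 137 more negative genes, which became 1235 and 352 with only the 8 treated libraries and 1260 and 412 with the sample as a replicate block. With identical models summed, 22 were more negative. Without 1 library the counts ran between 247 and 494 and between 32 and 130. Of 63 named genes called, 19 lost the call without some treated library, 7 under another scaling, 9 in DESeq2, 6 when thinned and 1, HyS0006.195, with the block. The 9 lost in DESeq2 were HyS0006.195, HyS0020.263, HyS0042.69, HyS0113.11, HyS0143.12, HyS0151.1, HyS0161.6, HyS0385.10 and HyS0422.6. Of 17 named genes not called, 12 passed with the block (9 higher and 3 lower). The cause was not tested.

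Log2 fold changes near 0 that did not pass turned negative in some settings. With RLE, HyS0003.78 was at -0.060, HyS0004.42 at -0.029, HyS0010.85 at -0.030, HyS0016.179 at -0.0039, HyS0034.48 at -0.16, HyS0042.123 at -0.18, HyS0045.22 at -0.067 and the stable maternal median at -0.0016. With upper-quartile factors, HyS0003.78 was at -0.016, HyS0034.48 at -0.11, HyS0042.123 at -0.14 and HyS0045.22 at -0.023. With stable maternal totals, HyS0003.78 was at -0.022, HyS0034.48 at -0.12, HyS0042.123 at -0.14 and HyS0045.22 at -0.028. With DESeq2, HyS0003.78 was at -0.059, HyS0004.42 at -0.029, HyS0010.85 at -0.030, HyS0016.179 at -0.0028, HyS0034.48 at -0.16, HyS0042.123 at -0.18, HyS0045.22 at -0.067 and the stable maternal median at -0.0015. With only the 4 treated libraries, HyS0003.78 was at -0.016, HyS0034.48 at -0.11, HyS0042.123 at -0.14 and HyS0045.22 at -0.023. With those 4 with the replicate block, HyS0003.78 was at -0.016, HyS0034.48 at -0.11, HyS0042.123 at -0.14 and HyS0045.22 at -0.024. With identical gene models summed, HyS0003.78 was at -0.0085, HyS0034.48 at -0.10, HyS0042.123 at -0.13 and HyS0045.22 at -0.015. With totals without the histone cluster, HyS0034.48 was at -0.033 and HyS0042.123 at -0.059. With filterByExpr, HyS0034.48 was at -0.021 and HyS0042.123 at -0.048. With clutch B left out, HyS0034.48 was at -0.077 and HyS0042.123 at -0.10. Without 1 library, HyS0042.123 ran between -0.051 and 0.097.

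With 2 libraries a group and low counts for zygotic genes in Triptolide, differences of low genes were not detectable at this depth where the adjusted p missed 0.05. The scale itself rests on which genes are taken to be level, and no spike-in counts were used here, so a common shift of all maternal mRNA and a scaling effect cannot be told apart.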
